A study of Mus musculus with 6 samples.

Results

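The TOX family of transcription factors was examined in regulatory T (Treg) cells of mice with a conditional deletion of Tkt, the gene of the enzyme transketolase. Its 4 members, Tox, Tox2, Tox3 and Tox4, were taken by gene symbol from a table of 18493 genes, and all 4 were found there once. The family was selected on a measured value of these data, the difference in Tox2 between the groups, which was known when it was proposed. The conditional knockout libraries (cKO) came from Foxp3cre/+ TKTfl/fl mice, in which Cre is driven from the Foxp3 locus and the floxed Tkt gene is deleted in cells that express it. The wild-type libraries (WT) came from Foxp3cre/+ mice, so both groups carried the Cre allele. All mice were untreated C57BL/6 females aged 7 weeks, with 3 mice per group per the design text, and CD4+CD25+YFP+ cells were sorted from spleen and lymph node. Foxp3 is X-linked, so a female with 1 Cre allele is a mosaic, and sorting on YFP keeps cells that use the Cre allele. The labels do not say whether a library pools animals, and the spread given here is that between libraries.

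TOX proteins share a single HMG box, a DNA-binding fold that recognises DNA structure more than base sequence. Tox, first described in the thymus, is required for the development of CD4 T cells and is known for sustaining exhausted CD8 T cells in chronic infection and tumours. Tox2 is known from follicular helper T cells and natural killer cells, Tox3 from neurons and epithelia, and Tox4 is expressed in most tissues as a subunit of the PTW/PP1 phosphatase complex. In T cells, calcineurin, NFAT and NR4A proteins act upstream of Tox and Tox2.

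The coding sequences of the 4 genes were compared first, because reads of near-identical genes cannot be told apart. The 90 bases most alike in all 4 genes, each within a single exon, are shown to let a reader see how far the paralogs differ. They are GENCODE M21 sequence in the mm10 (GRCm38) build, given 5′ to 3′ on the coding strand. Capitals mark the columns at which the 4 genes are not all identical.
Tox: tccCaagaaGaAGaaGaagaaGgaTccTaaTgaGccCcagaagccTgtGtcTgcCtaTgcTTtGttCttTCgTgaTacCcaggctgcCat
Tox2: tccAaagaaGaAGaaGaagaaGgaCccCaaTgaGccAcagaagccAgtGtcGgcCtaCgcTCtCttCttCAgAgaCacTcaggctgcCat
Tox3: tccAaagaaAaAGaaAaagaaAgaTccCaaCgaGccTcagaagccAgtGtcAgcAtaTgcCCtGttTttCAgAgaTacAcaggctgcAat
Tox4: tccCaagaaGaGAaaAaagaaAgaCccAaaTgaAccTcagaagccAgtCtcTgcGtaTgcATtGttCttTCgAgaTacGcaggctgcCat

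The Tox window lies in exon 5 at chr4:6722226-6722315 on the minus strand, and the Tox2 window in exon 5 at chr2:163315845-163315934 on the plus strand. The Tox3 window lies in exon 5 at chr8:90254363-90254452 on the minus strand, and the Tox4 window in exon 6 at chr14:52287354-52287443 on the plus strand. Of the 90 columns, 64 were identical in all 4 genes, and any pair differed at 14 to 19 of them. Over the aligned coding sequences, Tox and Tox2 were identical at 57.8% of bases, and the other pairs at 50.2% to 57.3%. The longest run that any pair shared without a difference was 24 bases, between Tox and Tox3 (ccagctgaccaccatcaaccagtc), and Tox and Tox2 shared a run of at most 20 bases. Even the most alike stretch thus held differences between every pair of members.

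The genes differ in size and in what overlaps them. Tox spans chr4:6686353-6991557 (305205 bases, 9 exons in the transcript with the longest coding sequence), Tox2 chr2:163203125-163324170 (9 exons), Tox3 chr8:90247040-90348343 (7 exons) and Tox4 chr14:52279146-52296401 (17256 bases, 10 exons). Tox4 shares 933 exonic bases with Mettl3 and 195 with Rab2b, both on the opposite strand, out of 6950 exonic bases of Tox4. Its estimated counts were not whole in any library, whereas those of Tox, Tox2 and Tox3 were whole in all 6. The sources used here do not say whether counting used strand, so some Tox4 reads may belong to these neighbours. Tox overlaps the antisense gene Gm11802 over 260 exonic bases. No annotated gene shares exonic bases with Tox2 or Tox3.

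The libraries held 17709728, 18215168 and 17647866 estimated reads for cKO1 to cKO3, against 17715571, 17180577 and 17584289 for WT1 to WT3. Tkt, the targeted gene, read 31.9 to 52.5 CPM (reads scaled to library size) in cKO libraries and 97.1 to 126 CPM in WT libraries, with no overlap. The log2 fold change of Tkt came to -1.41 ± 0.19 (SE), without a call, since its adjusted p in edgeR was 0.0516 and a call needs a value under 0.05. The first principal component of all tested genes (36.1% of the variance) did not follow the groups. It set cKO1 (33.2) and WT2 (25.4) apart from WT1 (-25.9), WT3 (-22.4) and cKO3 (-18.4), with cKO2 (8.11) between them, and results are therefore also given without WT2 and cKO1, an alternative added once the data had been seen.

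The sorted cells carried the markers of Treg cells, and the 8 T and Treg cell markers were abundant in every library. Their summed level was 4345 to 4595 CPM in cKO libraries and 4864 to 5235 CPM in WT libraries, without overlap. The WT2 sum included Ctla4 at 1727 CPM, whereas Cd3e (309 CPM), Foxp3 (458 CPM) and Il2ra (628 CPM) were lower in WT2 than in any other library. Cd3g and Ikzf2 were lower in every cKO library than in every WT library. The sum thus does not show that the markers as a set were lower in cKO. None of the 8 markers was called by edgeR, DESeq2 or limma-voom. In edgeR 2 of them had an unadjusted p under 0.05, as had 991 of all 12887 genes tested. Ctla4, an inhibitory receptor, had the highest mean CPM of them over the 6 libraries, a mean carried by WT2 at 1727 CPM, and it ranged from 492 to 977 CPM in cKO and from 753 to 807 CPM in the other WT libraries. Cd4 was above Ctla4 in cKO2, cKO3, WT1 and WT3. The 6 follicular T cell markers summed to 106, 128 and 130 CPM in cKO1 to cKO3, against 168, 127 and 144 CPM in WT1 to WT3, so the groups overlapped, and the highest by CPM, the transcriptional repressor Bcl6, read 34.7 to 39.2 CPM in cKO and 38.0 to 44.8 CPM in WT. The 7 markers of CD8 T and NK cells summed to 31.3 to 37.3 CPM in cKO and 34.9 to 38.7 CPM in WT. Cd8b1 had the highest mean of these over the 6 libraries, at 14.4 to 17.8 CPM in cKO and 12.7 to 15.1 CPM in WT, with overlap. Nkg7, a cytotoxic granule protein named after its values were seen, was above Cd8b1 in WT libraries (15.5 to 21.4 CPM). It was lower in cKO libraries (9.83 to 14.1 CPM), without overlap, as were 8.12% of all tested genes. The NK receptor Ncr1 was at 0 in all libraries but cKO1. The 7 B cell markers, led by Cd79b, summed to 33.0, 17.9 and 13.3 CPM in cKO1 to cKO3 and to 19.9 to 21.6 CPM in WT. The 7 myeloid markers, led by Lyz2, summed to 68.0, 96.7 and 37.6 CPM in cKO1 to cKO3. In WT1 to WT3 the myeloid sums were 30.9, 63.3 and 30.3 CPM. The libraries with the highest myeloid sums, cKO2, cKO1 and WT2, also had the highest scores on the first principal component. The 5 erythroid markers reached 197 CPM in cKO1, where Hba-a1 stood at 83.6 CPM, and 3.34 to 3.87 CPM in the other cKO libraries, against 0.277 to 5.56 CPM in WT libraries. The part of these differences in the values below was not tested.

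Scaled for gene length, Tox was the most abundant family member, and Tox3 was near the limit of detection. Levels of different genes are compared here as FPKM, a level scaled by gene length and library size, as the authors computed it. Over the 6 libraries Tox averaged 47.5 ± 9.10 FPKM (SD, n = 6), above 91.3% of all genes in the table. Tox4 averaged 31.6 ± 2.67 FPKM, above 86.3% of genes, and Tox2 9.20 ± 4.38 FPKM, above 64.5% of genes (SD, n = 6 each).

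**Figure D1:**
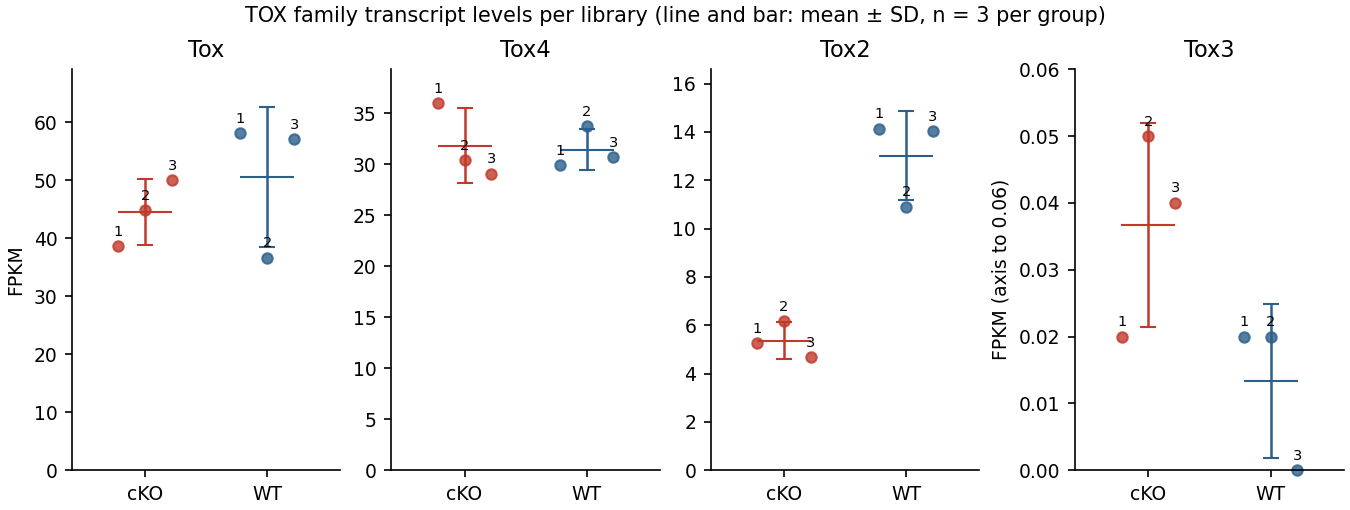
FPKM of the 4 TOX family genes in each library, with cKO in red left of WT in blue. Numbers beside points are replicate numbers, horizontal lines and bars are means ± SD (n = 3), and each panel has its own axis from 0. For Tox2 the cKO libraries sit at 4.68 to 6.17 FPKM, all below the WT libraries at 10.9 to 14.1 FPKM, while the groups overlap for Tox and Tox4.

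The order Tox, Tox4, Tox2, Tox3 by FPKM was the same in all 6 libraries, but the first step was small in cKO1 and WT2. In CPM, which is not scaled for length, Tox4 was above Tox in cKO1 (137 against 122 CPM). The same held in WT2 (131 against 119 CPM), so the order in these libraries depends on the length scaling. On the log2(FPKM + 0.1) scale Tox exceeded Tox4 by 0.57 ± 0.38 (SD, n = 6). The ratio of Tox to Tox4 was 1.07 in cKO1 and 1.09 in WT2, against 1.48 and 1.72 in cKO2 and cKO3 and 1.95 and 1.86 in WT1 and WT3. The lowest Tox value, 36.7 FPKM in WT2, was barely above the highest Tox4 value, 36.0 FPKM in cKO1, so these neighbours hardly separated across libraries. Tox4 exceeded Tox2 by 2.55 ± 0.24 in cKO libraries and by 1.27 ± 0.30 in WT libraries (log2 difference in level, SD, n = 3 each), and these neighbours did not overlap. The lengths implied by the deposited values, 3085 bases for Tox, 2048 for Tox2 and 3688 for Tox4, were shorter than the GENCODE transcripts with the longest coding sequence (3961, 2166 and 5350 bases), most so for Tox4, and the distance between genes depends on that length.

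Tox2 was the member whose groups did not overlap, and it was lower in cKO cells. It stood at 10.99, 12.6 and 9.36 CPM in cKO1 to cKO3, against 29.0, 22.6 and 28.5 CPM in WT1 to WT3. The cKO libraries were all below the WT libraries, and the lowest WT value, in WT2, was well above the highest cKO value, in cKO2. The group means were 10.998 ± 1.65 CPM in cKO and 26.7 ± 3.56 CPM in WT (SD, n = 3 each), and the fitted log2 fold change was -1.28 ± 0.15 (SE), a 2.43-fold lower level. These values rest on 189, 232 and 168 estimated reads in cKO1 to cKO3 and on 523, 378 and 506 in WT1 to WT3. No p is given for a member, and the values are a description.

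Of the 3 members that passed the filter on low counts, 1 was called, Tox2, on the lower side, and 0 were called higher. Over all 12887 genes tested, 0.21% were called in edgeR, 0.202% lower and 0.00776% higher in cKO. DESeq2, which tested 14842 genes, called 1.15%, and limma-voom called 0.147%, and Tox2 was called by both. Nothing is read from this count, since the same comparison led to the choice of the family. Groups without overlap in this direction were found for 8.12% of tested genes. The difference in Tox2 was as large without WT2 and cKO1 (log2 fold change -1.38 ± 0.15 SE), and on the log2(FPKM + 1) scale it was -1.14 ± 0.14. The call was lost when WT1, WT3, cKO1, cKO2 or cKO3 was left out, fits in which 0 genes were called, and in limma on log2 FPKM, while the log2 fold change stayed between -1.40 and -1.17 over the 6 fits with 1 library left out. In these bulk libraries, fewer cells that express Tox2 and less Tox2 RNA per cell cannot be told apart.

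Tox itself did not separate the groups. It stood at 122, 138 and 152 CPM in cKO1 to cKO3, against 174, 119 and 172 CPM in WT1 to WT3. The lowest of all 6 values was in WT2, below every cKO library, and the other 2 WT libraries were above every cKO library. The group means were 137 ± 15.3 CPM in cKO and 155 ± 31.6 CPM in WT (SD, n = 3 each), with a fitted log2 fold change of -0.18 ± 0.16 (SE), and Tox was not called.

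The low Tox values were those of cKO1 and WT2, the libraries that stood apart on the first principal component. In order of rising score on that component, Tox stood at 58.1 FPKM in WT1, 57.0 in WT3, 49.98 in cKO3, 44.9 in cKO2, 36.7 in WT2 and 38.6 in cKO1. The part of that component in the Tox values was not tested. Among the remaining 4 libraries the cKO values, 138 and 152 CPM, lay below the WT values, 174 and 172 CPM. The log2 fold change without WT2 and cKO1 was -0.26 ± 0.07 (SE) in edgeR and -0.28 ± 0.07 on the log2(FPKM + 0.1) scale, and Tox was not called in either. In 21.6% of tested genes both of these cKO libraries lay below both of these WT libraries, so the pattern is common. Leaving out WT2 alone moved the Tox value to -0.34 ± 0.10, and leaving out WT1 moved it to -0.08 ± 0.18.

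**Figure D2:**
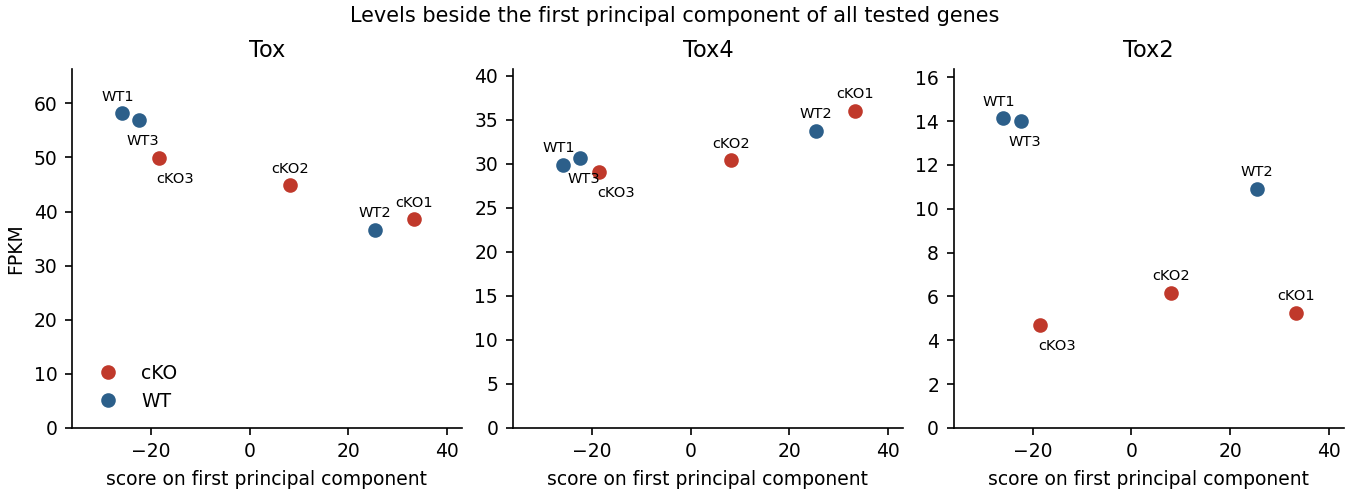
FPKM of Tox, Tox4 and Tox2 in each library against the score of the library on the first principal component of all tested genes, with cKO in red and WT in blue. Tox is highest at the low end of the component and lowest in WT2 and cKO1, Tox4 is highest in those 2 libraries, and Tox2 separates by group along the whole component.

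Tox4 was highest in cKO1 and WT2, where Tox was lowest, and its groups overlapped. It stood at 137, 109 and 106 CPM in cKO1 to cKO3, against 108, 131 and 111 CPM in WT1 to WT3. The remaining 4 libraries lay close together, from 106 to 111 CPM. The means were 117 ± 17.03 CPM in cKO and 117 ± 12.5 CPM in WT (SD, n = 3 each), and the log2 fold change was 0.01 ± 0.13 (SE), not called. Without WT2 and cKO1 it was -0.02 ± 0.06. The overlapping neighbours did not separate either, with Mettl3, which writes N6-methyladenosine on RNA, at 51.6 ± 6.07 CPM in cKO and 48.2 ± 2.76 CPM in WT, and the small GTPase gene Rab2b at 15.5 ± 0.387 CPM in cKO and 15.8 ± 1.19 CPM in WT (SD, n = 3 each).

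Tox3 was hardly detected. It had 1, 3 and 2 estimated reads in cKO1 to cKO3, against 1, 1 and 0 in WT1 to WT3. No library exceeded 3 reads, the upper limit that a count of 0 allows, which corresponds to 0.163 to 0.174 CPM in cKO libraries and 0.166 to 0.179 CPM in WT libraries. Tox3 did not pass the filter, and no fold is given.

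Tox2 took a smaller share of family transcripts in cKO libraries. It made up 6.57%, 7.58% and 5.59% of the summed family FPKM in cKO1 to cKO3, against 13.8%, 13.4% and 13.8% in WT1 to WT3. Its share was nearly constant across WT libraries, although the summed FPKM there ran from 81.3 in WT2 to 102 in WT1. In cKO libraries the sum was 79.9 to 83.8 FPKM. The share of Tox was 48.3% to 59.6% in cKO and 45.1% to 56.9% in WT libraries, and that of Tox4 34.7% to 45.1% in cKO and 29.2% to 41.5% in WT libraries, both with overlap. Tox exceeded Tox2 by 8.43 ± 1.95 times in cKO libraries and by 3.85 ± 0.42 times in WT libraries (SD, n = 3 each), again without overlap. These ratios restate the difference in Tox2 and are not independent of it.

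**Figure D3:**
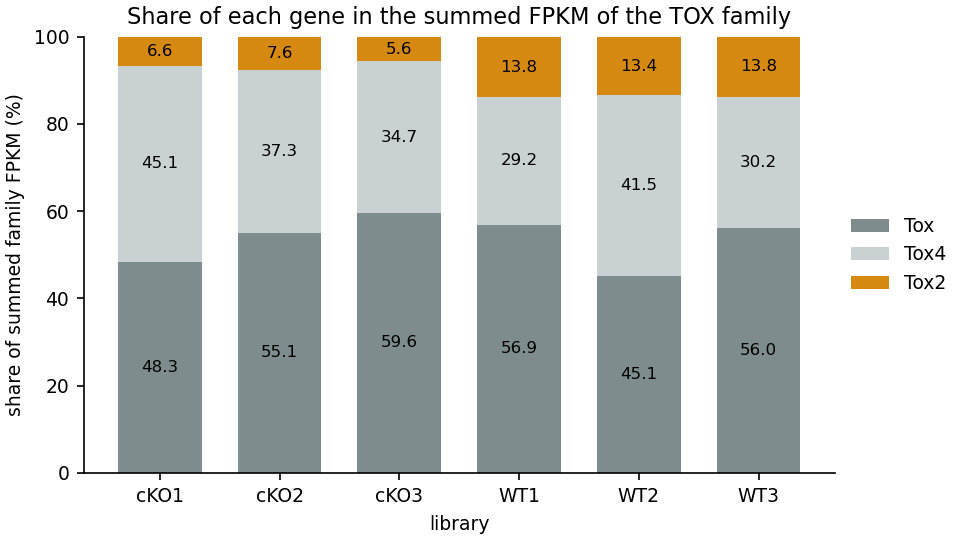
Share of Tox, Tox4 and Tox2 in the summed FPKM of the family, as stacked bars per library, with cKO libraries left of WT libraries. Tox3 is below 0.1% in each library and cannot be seen. The Tox2 share is 5.6% to 7.6% in cKO libraries and 13.4% to 13.8% in WT libraries.

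The genes whose pattern over the 6 libraries was most like each member were sought among 11100 other genes. Likeness was the Pearson r of log2 CPM over the 6 libraries, and with so few libraries many genes reach a high r, for example 96 genes above 0.95 for Tox2. Nearest to Tox2 were Mmp25, a membrane-anchored matrix metalloproteinase (r = 0.998), Stard10, a lipid transfer protein (r = 0.996), Rnf43, a ubiquitin ligase that removes Wnt receptors (r = 0.991), and the chemokine Cxcl2 (r = 0.991). With the group means removed, their r was 0.966, 0.988, 0.876 and 0.882. Rnf43 stood at 39.1, 38.4 and 32.9 CPM in cKO1 to cKO3, against 71.0, 58.5 and 65.2 CPM in WT1 to WT3, and it was called lower (log2 fold change -0.82 ± 0.11 SE, adjusted p = 0.0474 in edgeR). Mmp25 and Cxcl2 were low, at 0.557 to 0.981 CPM in cKO and 1.55 to 3.16 CPM in WT libraries over both genes. Mmp25, Stard10 and Cxcl2 were not called by edgeR (adjusted p of 0.133, 0.414 and 0.0591), while DESeq2 called Cxcl2 beside Rnf43 and limma-voom called none of the 4. These genes were picked for likeness to Tox2, whose groups differ. A group difference in them therefore largely follows from the choice, and nothing is read from these calls.

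The genes nearest to Tox and Tox4 followed the libraries rather than the groups. Nearest to Tox were the sialidase Neu3 (r = 0.993), Arhgap25, a GTPase-activating protein of Rac (r = 0.993), C1qtnf6 (r = 0.989) and Csnk2b, the regulatory subunit of casein kinase 2 (r = 0.988). Neu3 read 13.3 and 14.0 CPM in cKO1 and WT2, and 17.5 to 25.1 CPM in the other libraries. Nearest to Tox4 were Necap1, an endocytic adaptor protein (r = 0.999), Zfp984 (r = 0.994), Slc25a25, a mitochondrial ATP-Mg/phosphate carrier (r = 0.993), and the lipid phosphatase Mtmr14 (r = 0.992). Necap1 read 36.3 and 30.5 CPM in cKO1 and WT2, and 14.1 to 16.8 CPM in the other libraries. None of these 8 genes was called by edgeR, DESeq2 or limma-voom. In edgeR 0 of them had an unadjusted p under 0.05, against 991 of all 12887 genes tested. The genes were picked for likeness to members whose groups overlapped, so this lack of calls largely follows from the choice. No shared function is read from likeness.

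Genes that act upstream of TOX factors were examined next, and 0 of them were called by edgeR, DESeq2 or limma-voom. Calls were rare over all genes tested (0.21% in edgeR, 1.15% in DESeq2 and 0.147% in limma-voom), so 0 calls in a short list say little. The 10 genes of calcineurin, NFAT and NR4A proteins had a median log2 fold change of -0.03, against 0.004 over all genes tested. In edgeR 1 of them had an unadjusted p under 0.05, as had 991 of all 12887 genes tested. With 1 library left out the median ran from -0.09 to 0.03. The member with the lowest p was Ppp3ca, a catalytic subunit of calcineurin, at 61.2 ± 3.77 CPM in cKO and 49.4 ± 0.879 CPM in WT (log2 fold change 0.31 ± 0.07 SE, adjusted p = 0.251 in edgeR; SD, n = 3 each). The following 4 were picked after their values were seen. Nfatc1, an NFAT factor, stood at 340.1 ± 28.3 CPM in cKO and 387 ± 52.1 CPM in WT. The nuclear receptor genes Nr4a1, Nr4a2 and Nr4a3 had log2 fold changes of 0.01 ± 0.16, -0.62 ± 0.77 and -0.39 ± 0.49 (SE), and Nr4a2 in WT varied by more than its mean (149 ± 155 CPM, SD, n = 3), with WT2 at 327 CPM.

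Genes for protein partners of TOX factors were examined in the same way. The list holds the PTW/PP1 phosphatase, in which Tox4 sits with Ppp1r10, Wdr82 and a catalytic chain, and the HBO1 histone acetyltransferase complex built around Kat7. None of its 15 genes was called by edgeR, DESeq2 or limma-voom. In edgeR 0 of them had an unadjusted p under 0.05, against 991 of all 12887 genes tested. With so few calls over all genes tested, 0 calls in this list say little too. The median log2 fold change was 0.06, and -0.01 to 0.11 with 1 library left out. Meaf6, a subunit of the acetyltransferase complex, had the lowest p and stood at 43.05 ± 0.750 CPM in cKO and 47.8 ± 1.35 CPM in WT (log2 fold change -0.15 ± 0.07 SE, adjusted p = 0.667 in edgeR; SD, n = 3 each).

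Among genes that accompany Tox in exhausted CD8 T cells, edgeR called Tigit lower and no gene higher, out of 14 tested, where 0.202% of all genes were called lower. DESeq2 called 3 lower, Tigit, Slamf6 and Irf4, and 0 higher, and limma-voom called Tigit. Over all genes tested, DESeq2 called 1.15% and limma-voom 0.147%, in either direction. In edgeR 6 of the 14 genes had an unadjusted p under 0.05, as had 991 of all 12887 genes tested. The list's median log2 fold change was -0.27, and 12 of the 14 genes had a value below 0, against 6261 of 12887 tested genes. This list was chosen with earlier results of these data known, so nothing is read from its counts. Tigit, an inhibitory receptor, stood at 19.0 ± 2.12 CPM in cKO and 45.6 ± 2.72 CPM in WT (SD, n = 3 each; log2 fold change -1.26 ± 0.10 SE, adjusted p = 0.0269 in edgeR). For 6 of the 14 genes the cKO libraries were all below the WT libraries, and for 0 all above, against 8.12% and 6.1% of all tested genes. Named after their values were seen, the 6 were Tigit, the ectonucleotidase gene Entpd1 (log2 fold change -0.24 ± 0.09 SE), the SLAM receptor gene Slamf6 (-0.30 ± 0.07), the AP-1 factor Batf (-0.42 ± 0.14), its partner Irf4 (-0.33 ± 0.07) and Ikzf2 (-0.21 ± 0.09), which encodes Helios, and edgeR did not call the last 5. Pdcd1, the gene of the receptor PD-1, also named after its values were seen, stood at 23.6 ± 6.89 CPM in cKO and 26.3 ± 7.73 CPM in WT (SD, n = 3 each). The receptor genes Havcr2, Ctla4 and Lag3, named in the same way, had log2 fold changes of -0.88 ± 0.42, -0.57 ± 0.37 and -0.415 ± 0.27 (SE). Ctla4 stood at 1727 CPM in WT2, while WT1 (807 CPM) and WT3 (753 CPM) lay within the cKO range. The genes of the list above 0 were Eomes (0.30 ± 0.22 SE) and Tcf7 (0.18 ± 0.13). The groups overlapped for these 3 receptor genes, Eomes and Tcf7, and edgeR called none of them.

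**Figure D4:**
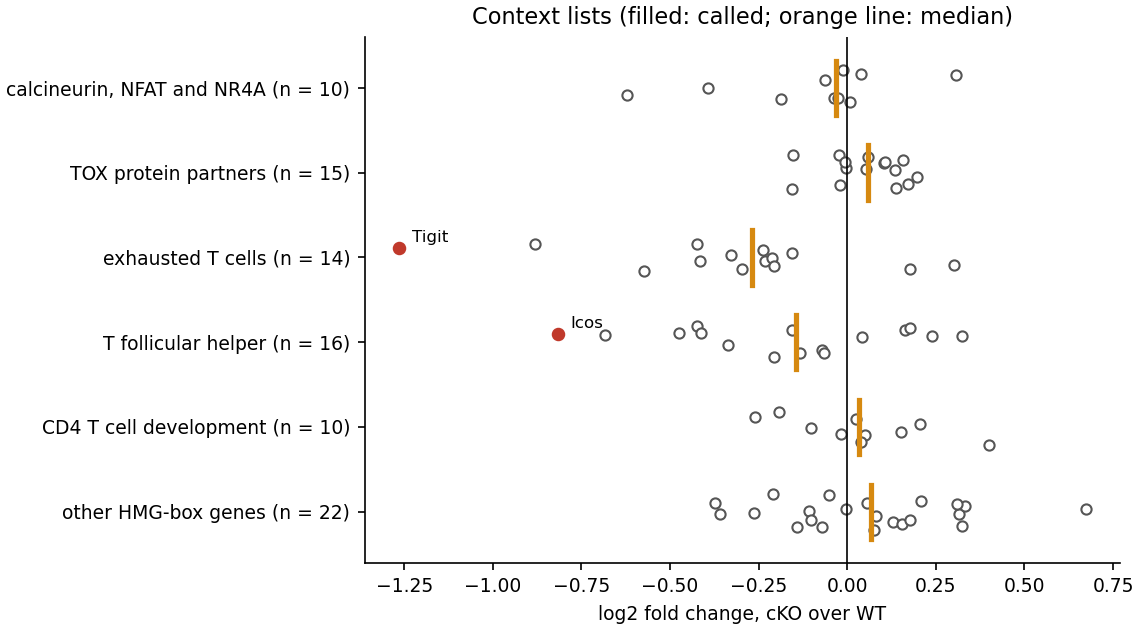
Log2 fold change, cKO over WT, of each tested gene in 6 lists of genes connected with TOX factors. Each point is 1 gene, filled red where called by edgeR and open otherwise, and orange lines mark list medians. Tigit (-1.26) and Icos (-0.82) are the called genes, and the medians run from -0.27 to 0.07.

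Genes of follicular helper T cells, where Tox2 is best known, were also examined. Of 16 tested genes edgeR and limma-voom called Icos lower and none higher, while DESeq2 called Icos and Maf lower and Lef1 higher. Over all genes tested, edgeR called 0.21%, limma-voom 0.147% and DESeq2 1.15%, in either direction. In edgeR 6 of the 16 genes had an unadjusted p under 0.05, as had 991 of all 12887 genes tested. The median log2 fold change was -0.14, but it was -0.01 without cKO1 and -0.06 without WT1, and -0.21 without WT2. Icos, a costimulatory receptor, stood at 131 ± 11.8 CPM in cKO and 230.0 ± 20.4 CPM in WT (SD, n = 3 each; log2 fold change -0.82 ± 0.10 SE, adjusted p = 0.0449 in edgeR). The cKO libraries were all below the WT libraries for 6 genes and all above for 2. Named after their values were seen, these were Icos, the chemokine receptor gene Cxcr5 (log2 fold change -0.47 ± 0.16 SE), the signalling adaptor gene Sh2d1a (-0.41 ± 0.09), the transcription factor gene Maf (-0.68 ± 0.12), Batf and the coactivator gene Pou2af1 (-0.34 ± 0.16) on the lower side, and the HMG-box factor gene Lef1 and the receptor chain gene Il6st (0.16 ± 0.08) on the higher side. Of all tested genes, 8.12% lay lower and 6.1% higher in this way. The follicular list was likewise chosen with earlier results known, so nothing is read from its counts. Tcf7, Pdcd1 and Batf stand in both this list and the preceding one.

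Regulators of CD4 T cell development, the process for which Tox is required in the thymus, were examined last, beside other HMG-box genes. Over all genes tested, edgeR called 0.21%, limma-voom 0.147% and DESeq2 1.15%, so 0 calls by edgeR or limma-voom in these lists say little. Of 10 developmental regulators, 0 were called by edgeR or limma-voom, and DESeq2 called Satb1 higher. In edgeR 2 of these regulators had an unadjusted p under 0.05, as had 991 of all 12887 genes tested. The median log2 fold change of the 10 regulators was 0.03, and -0.04 to 0.07 with 1 library left out. The lowest p belonged to Satb1, a chromatin organizer, at 522 ± 29.8 CPM in cKO and 396 ± 25.1 CPM in WT (SD, n = 3 each; log2 fold change 0.40 ± 0.08 SE, adjusted p = 0.169 in edgeR). Of 22 other HMG-box genes tested, 0 were called by edgeR or limma-voom (3 at an unadjusted p under 0.05 in edgeR). DESeq2 called Lef1 higher, the call already given for the follicular list, in which Lef1 and Tcf7 also stand. The median log2 fold change of the 22 HMG-box genes was 0.07, and 0.02 to 0.11 with 1 library left out. Lef1, which acts with beta-catenin in T cells, had the lowest p and stood at 316 ± 21.3 CPM in cKO and 252 ± 14.0 CPM in WT (log2 fold change 0.32 ± 0.08 SE, adjusted p = 0.304; SD, n = 3 each). Its relative Tcf7, named after its value was seen, stood at 1076 ± 83.0 CPM in cKO and 952 ± 147 CPM in WT.

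**Figure D5:**
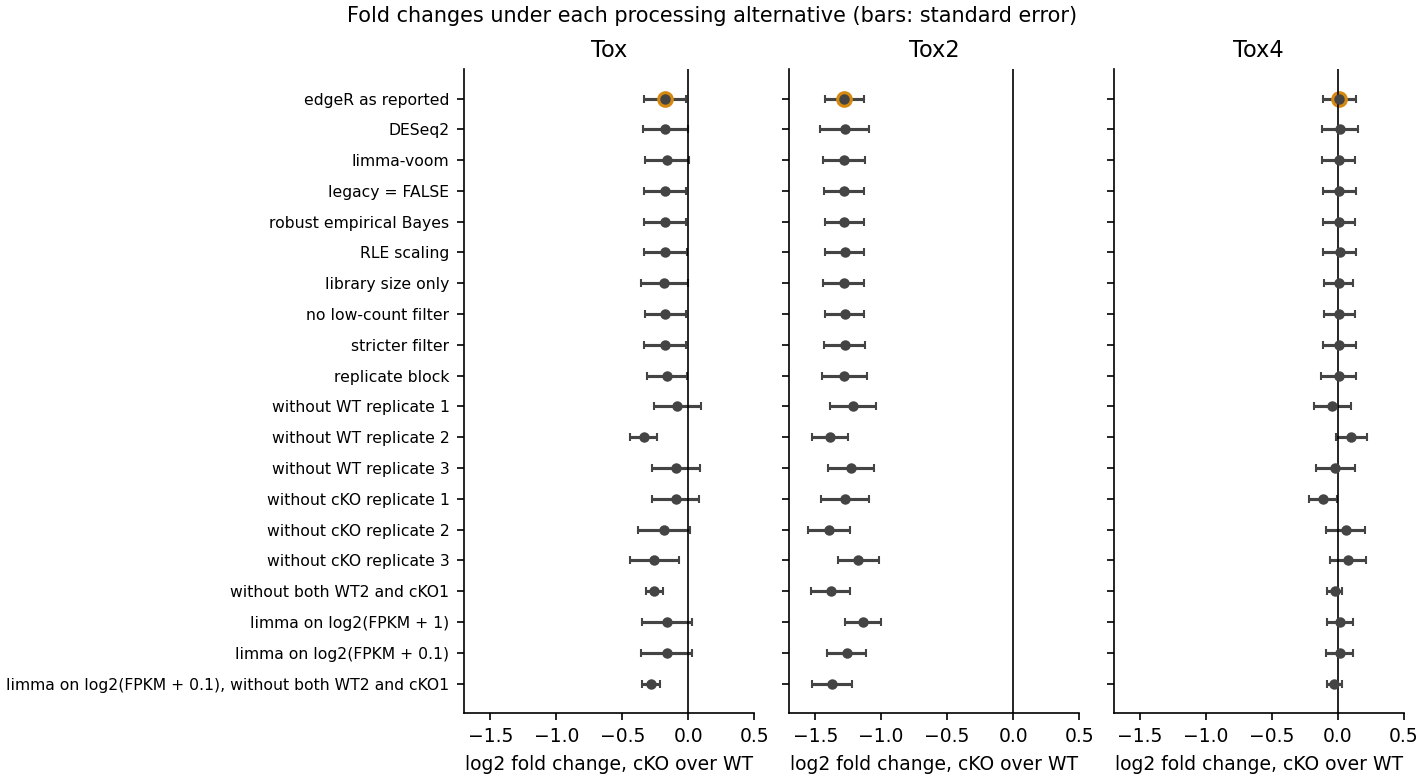
Log2 fold change, cKO over WT, with its standard error for Tox, Tox2 and Tox4 under the reported fit (orange) and 19 alternatives. Tox2 runs from -1.40 to -1.14, Tox from -0.34 to -0.08, and Tox4 from -0.12 to 0.10, on both sides of 0.

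Tox2 was lower in cKO in all 19 alternatives and was called in 10 of them, a direction that follows from groups without overlap. Tox was below 0 in all 19 and called in none. Tox4 was below 0 in 5 of 19 and called in none.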

How the data were processed

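RNA of 3 cKO and 3 WT libraries was sequenced after NEBNext Ultra library preparation, per the labels. Per the submitters' processing notes, the upstream tools were DESeq2 1.16.1, featureCounts 1.5.0-p3 and HISAT2 2.0.5, and the build was mm10, with no role or order stated. The authors deposited estimated counts per gene, not normalized, of which 45.4% to 46.3% per library were not whole to within 0.01; the sources used here do not say how these arose. The authors also deposited FPKM values, judged as such from the values, and group means of both, which were not used.

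Estimated counts were rounded. Genes passing filterByExpr (minimum count 10) of edgeR 4.0.16 in R 4.3.3 were kept (12887), scaled by TMM and tested with the quasi-likelihood F test with group as the only term, adjusted by Benjamini-Hochberg over all of them and called where the adjusted p was under 0.05. Library sizes for CPM were TMM-scaled, and SEs were derived from the F statistic. The smallest two-sided p of an exact permutation test on a single value is 0.1 at this size (3 against 3). The code was tested on simulated counts. Alternatives were DESeq2 1.42.0, limma-voom and limma on log2 FPKM (limma 3.58.1), other scalings, filters and fits, the replicate number as a block, and libraries left out. Coding sequences of GENCODE M21 were aligned with MAFFT 7.526.

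The members and the 6 context lists were chosen with earlier results of these data known. Named genes were the members, Tkt, up to 3 called genes of each list or the gene with the lowest p, the most abundant gene of each marker list, and the 4 genes with the highest r with each member, among named genes of at least 1 CPM on average. Others are said to be chosen after their values were seen. The floor of 3 reads covers counting error only, whereas the SDs and SEs include variation between libraries.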

Additional observations from a re-analysis of the deposited data

How the results depend on the processing

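The reported edgeR fit called 27 genes. DESeq2, which differs in its test and in the genes tested (14842 against 12887), called 171. In edgeR the count was 48 with robust empirical Bayes, 43 with no filter on low counts, and 71 when both WT2 and cKO1 were left out, an alternative added after the data had been seen. Leaving out 1 library gave 0 to 30 called genes and 0 to 1 called family members. The 30 genes and the 1 member were obtained without WT2, and the other 5 fits called 0 genes, where 681 to 909 genes had an unadjusted p under 0.05 (991 in the reported fit). With the replicate number as a block, 0 genes and 0 family members were called (811 genes at an unadjusted p under 0.05, where DESeq2 without a block called 171 and limma-voom 19). Whether the numbers pair the libraries could not be decided, since the check had only 3 libraries per group. Deviations from the group means of same-numbered libraries correlated at -0.278, 0.062 and 0.261, and 3 of 6 libraries correlated best with their own number. The fold changes of Tox, Tox2 and Tox4 moved by less than the spread between libraries in all 19 alternatives. The distance in level between Tox2 and Tox3 depended on the pseudocount, at 6.08 on the log2(FPKM + 0.1) scale and 3.20 on the log2(FPKM + 1) scale, since Tox3 is near 0. The causes were not tested. Depth limits Tox3, which had at most 3 reads per library.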
